A study of Saccharomyces cerevisiae S288C with 72 samples.

Results

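The transcripts of 6 zinc genes of budding yeast, ZPS1, ZAP1, ZRT1, ZRT2, ZRT3 and ZRC1, were followed over time in culture. The strains were 2 with a broken respiratory chain and wild type. The 6 genes were taken by name from the 5803 genes of the deposited table. They were selected on measured values, because ZPS1 was high in both mutants between 9 and 16 h, so values of the mutants against wild type in that span are given as a description, with no test. The study compared Saccharomyces cerevisiae of the S288C background by RNA-seq at 24 matched times between 0 and 58 h, with 1 library for each strain and time and 72 libraries in all. The nde1Δ nde2Δ ndi1Δ strain lacks both outward-facing mitochondrial NADH dehydrogenases and the inward-facing one, which in this yeast pass electrons from NADH to ubiquinone. The cox4Δ strain lacks a subunit of cytochrome c oxidase, the last enzyme of the respiratory chain. Wild type carries none of these deletions. All cultures grew in the same defined medium with ammonium and 2% glucose in shake flasks, and neither zinc nor any other metal was varied by the labels.

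Yeast keeps its zinc steady through Zap1, a transcription factor that is active when zinc inside the cell is low and that binds the zinc-responsive element in the promoters of its targets. ZRT1 and ZRT2 encode the high-affinity and the low-affinity zinc importers of the plasma membrane. ZRT3 encodes the carrier that releases zinc from the vacuole, and ZRC1 the carrier that stores zinc there. ZAP1 activates its own promoter, and ZRT2 is known to be repressed by Zap1 when zinc is very scarce. ZPS1 encodes a protein of the cell surface that is induced in zinc-poor medium and resembles Pra1, a secreted zinc-binding protein of Candida albicans.

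The promoters of all 6 genes held a match to the zinc-responsive element, read with at most 1 mismatch at its 10 fixed bases within 1000 bases upstream of the start codon. The element has 1 free base in its centre and its fixed bases are their own reverse complement, so both strands were searched at once. Among 5996 promoters of nuclear protein-coding genes of the same length, 197 (3.29%) held such a match, 13 (0.217%) an exact one and 7 (0.117%) at least 2. The members were taken by name as zinc genes, and the element is that of Zap1 targets. The contrast with all promoters is therefore a description and not a test. ZPS1, ZRT1 and ZRT2 each held 2 matches and the other members 1. The stretches are shown because they carry the letters that the 6 promoters share; they were read from the RefSeq R64 genome, the same build as sacCer3, with the matches in capitals, 5′ to 3′ on the strand of the gene.
ZPS1, chrXV:34304-34379, plus strand: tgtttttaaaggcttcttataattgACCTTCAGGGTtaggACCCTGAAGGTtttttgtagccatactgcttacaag
ZAP1, chrX:333182-333242, minus strand: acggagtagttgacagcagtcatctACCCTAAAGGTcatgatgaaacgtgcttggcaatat
ZRT1, chrVII:20634-20809, plus strand: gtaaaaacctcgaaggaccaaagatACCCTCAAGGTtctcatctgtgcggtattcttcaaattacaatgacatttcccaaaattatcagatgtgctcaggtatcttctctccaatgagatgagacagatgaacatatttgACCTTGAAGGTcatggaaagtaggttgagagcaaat
ZRT2, chrXII:404289-404398, minus strand: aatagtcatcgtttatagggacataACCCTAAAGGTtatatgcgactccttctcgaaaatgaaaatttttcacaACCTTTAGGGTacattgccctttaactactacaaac
ZRT3, chrXI:118613-118673, plus strand: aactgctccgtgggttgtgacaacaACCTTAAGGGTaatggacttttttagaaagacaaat
ZRC1, chrXIII:756305-756365, minus strand: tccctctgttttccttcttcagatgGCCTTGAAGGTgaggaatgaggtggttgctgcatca

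The second match of ZRT1, ACCTTGAAGGT, was the exact one among the members and shows the letters of the element around its free central base, here G. The ZRT2 match ACCCTAAAGGT has the same letters as that of ZAP1. In ZPS1 the pair of matches lay 4 bases apart, from -329 to -319 and from -314 to -304 relative to the start codon. In ZRT2 the first bases of the pair were at -311 and -262, and in ZRT1 at -319 and -204. The single matches began at -144 in ZAP1, -155 in ZRT3 and -174 in ZRC1. A match describes the letters of the promoter, and binding was not measured.

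**Figure D1:**
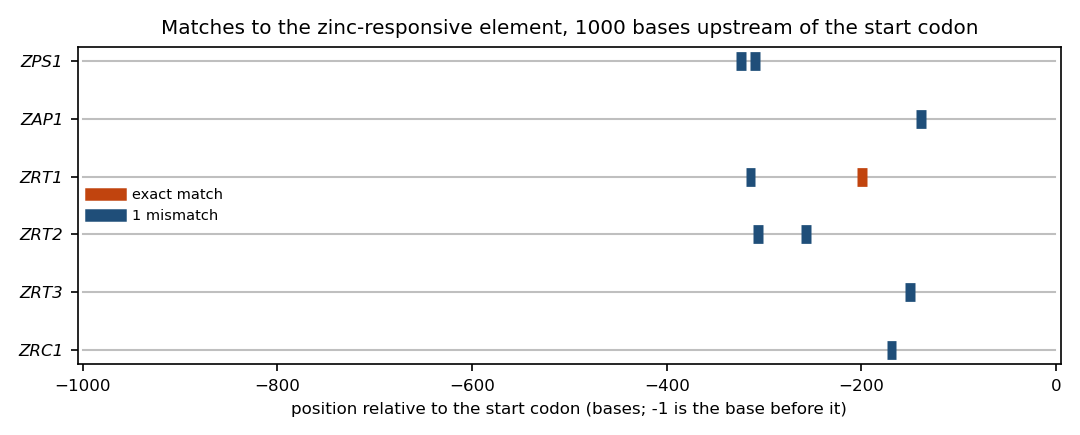
Positions of matches to the zinc-responsive element upstream of the start codon of each gene, in bases; blue boxes have 1 mismatch and the red box is exact. The matches of ZPS1, ZRT1 and ZRT2 come in pairs, and all lie between -329 and -134.

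Each of the 6 genes is annotated with 1 coding segment and with no overlapping gene. ZPS1 (YOL154W) lies on chromosome XV from 34658 to 35407 on the plus strand and ZAP1 (YJL056C) on chromosome X from 330431 to 333073 on the minus strand. ZRT1 (YGL255W) lies on chromosome VII from 20978 to 22108 on the plus strand, ZRT2 (YLR130C) on chromosome XII from 402794 to 404062 on the minus strand and ZRT3 (YKL175W) on chromosome XI from 118793 to 120304 on the plus strand. ZRC1 (YMR243C) lies on chromosome XIII from 754838 to 756166 on the minus strand. The coding sequences of ZRT1 and ZRT2 were identical at 58.0% of aligned bases and those of ZRC1 and COT1, another vacuolar carrier gene, at 65.0%, so the members are not near-identical copies.

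Values are TPM, the abundance of a transcript per length as a share of its library, rescaled to a common total over nuclear protein-coding genes. Since they are shares, fewer transcripts of a gene and more RNA of other genes cannot be told apart. Levels are given as mean ± SD within a span of times: early (0 to 8 h, 7 times), middle (9 to 16 h, 8 times) and late (18 to 58 h, 9 times). Time points stood in for replicates, and no replicate culture is stated, so p-values do not measure the spread between cultures. For changes within a strain they rest on the spread between times. For comparisons between strains they rest on the scatter of strain differences over matched times. Both were pooled over all strains and windows, and successive times were treated as independent. The deleted genes matched the labels: NDE1 lay between 0.171 and 3.24 TPM in nde1Δ nde2Δ ndi1Δ libraries, against 104 to 1398 TPM in wild type, and COX4 between 0.397 and 5.23 TPM in cox4Δ libraries, against 321 to 1559 TPM in wild type. The sample descriptions open with a code of a letter and a number whose meaning they do not state; no letter is shared between strains, and every strain changes letter between 13 and 14 h. Whatever the letter stands for cannot be told apart from strain and time. Sequencing depth is unknown, as TPM keeps no read numbers.

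Over the whole course ZRT1 ranged most widely of the 6 genes and ZRC1 least. The ratio of the highest to the lowest level of ZRT1 was 301 in nde1Δ nde2Δ ndi1Δ, 402 in cox4Δ and 423 in wild type. For ZRC1 the same ratio was 2.43, 2.08 and 2.53 in these strains. On the TPM scale, which is per transcript length, ZRT1 also had the highest late mean of the members in all 3 strains. ZAP1, the gene of the regulator, had the lowest, although in wild type its median of 31.0 TPM was above the 29.0 TPM of ZPS1. Late, and with the common total, the members parted into 3 kinds. ZPS1 was higher in both mutants, ZRT2 and ZRT3 were lower, and ZAP1, ZRT1 and ZRC1 differed from wild type by less than 2-fold. At a limma adjusted p under 0.05 and 2-fold, 29.4% of all genes were lower in nde1Δ nde2Δ ndi1Δ and 26.3% in cox4Δ. Higher genes made up 2.71% and 2.46%, in the same strain order. Being lower was thus common among all genes and not particular to ZRT2 and ZRT3. The parting depended on the scaling: with the other scaling described below, ZRT2 was also under 2-fold in both mutants. It did not describe earlier times either, as ZRT1 in nde1Δ nde2Δ ndi1Δ had a median ratio to wild type of 2.04 between 9 and 16 h.

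**Figure D2:**
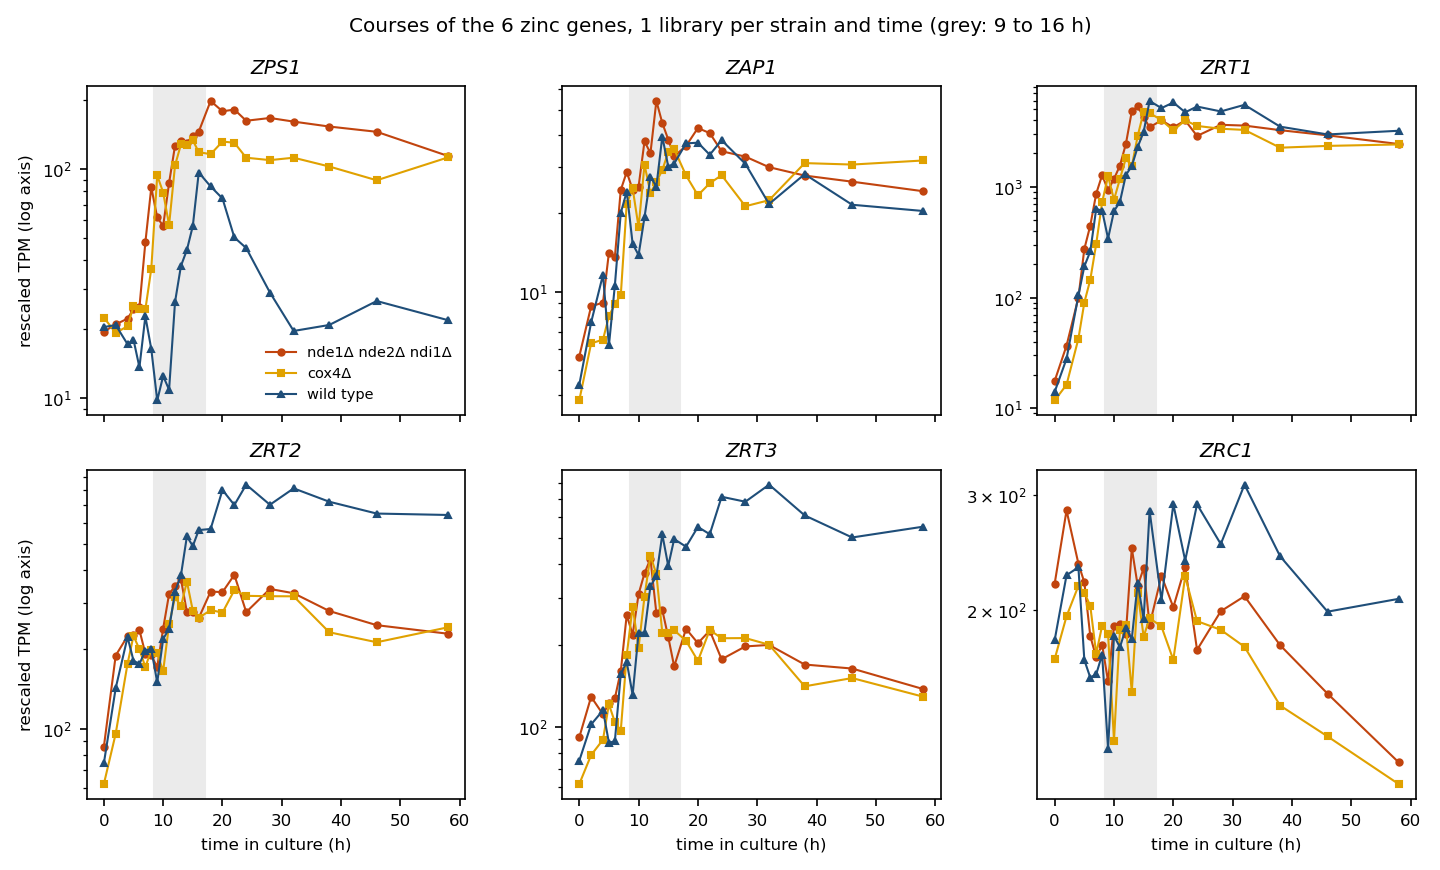
Rescaled TPM of the 6 genes on log axes against time in culture (h), 1 point per library, with nde1Δ nde2Δ ndi1Δ in red, cox4Δ in yellow and wild type in blue; grey marks 9 to 16 h. ZPS1 peaked at 199 TPM in nde1Δ nde2Δ ndi1Δ, 134 TPM in cox4Δ and 96.8 TPM in wild type, where it then dropped to 21.9 TPM at 58 h.

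The timing of ZPS1 in part rests on the values that chose the genes and is given as a description. Onset was sought among times after 6 h only. It was the first time that, together with the next, stood at 2-fold or more of the mean of 0 to 6 h. By this rule ZPS1 first rose at 7 h in nde1Δ nde2Δ ndi1Δ, at 9 h in cox4Δ and at 13 h in wild type. At 9 h it was at 61.6 TPM in nde1Δ nde2Δ ndi1Δ and 94.1 TPM in cox4Δ, against 9.8 TPM in wild type, its lowest value anywhere. Between 9 and 16 h, the values on which the genes were chosen, the lowest, median and highest ZPS1 levels were 56.6, 129 and 146 TPM in nde1Δ nde2Δ ndi1Δ and 57.1, 111 and 134 TPM in cox4Δ, against 9.8, 32.1 and 96.8 TPM in wild type. Each mutant was above wild type at 8 of 8 times, although the ranges overlapped, with wild type at its highest at 16 h. The ratio at matched times had a median of 4.02 (range 1.51 to 7.99) in nde1Δ nde2Δ ndi1Δ and of 3.67 (1.23 to 9.6) in cox4Δ, with the smallest ratios at 16 h.

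The course of HXT3, the gene of a low-affinity glucose transporter that is expressed while glucose is plentiful, placed these times relative to its own loss. HXT3 last held at least 50% of its peak at 11 h in nde1Δ nde2Δ ndi1Δ, at 12 h in cox4Δ and at 14 h in wild type. At those times ZPS1 stood at 87.1 TPM in nde1Δ nde2Δ ndi1Δ and 104 TPM in cox4Δ, against 44.4 TPM in wild type. ZRT1 at the same times stood at 1554 and 1808 TPM in the mutants, in that strain order, against 2290 TPM in wild type. With 1 library per strain and time, these are single values with no test.

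In the late window 1 member was higher than in wild type in each mutant (ZPS1). In each, 2 were lower (ZRT2 and ZRT3) and 3 were not called. A call required a limma adjusted p under 0.05 together with a change of 2-fold or more. The genes were chosen on values of the middle window, and the late libraries continue the same time courses. The scatter behind the tests was also pooled over windows, the middle one included. The late p-values of ZPS1 are therefore not independent of that choice. Of the 5721 genes tested, 32.1% were called in nde1Δ nde2Δ ndi1Δ (2.71% higher and 29.4% lower) and 28.8% in cox4Δ (2.46% higher and 26.3% lower). Lower calls were thus common among all genes and higher calls were not. The median log2 difference of the 6 members was -0.42 in nde1Δ nde2Δ ndi1Δ and -0.55 in cox4Δ, against -0.65 and -0.61 over all genes in the same strains. When libraries were scaled by the median of ratios, which puts the middle gene near 0, the calls over all genes turned from 155 higher and 1681 lower to 522 higher and 391 lower in nde1Δ nde2Δ ndi1Δ. In cox4Δ they turned from 141 higher and 1504 lower to 458 higher and 389 lower. Both mutants were set against the same wild-type libraries.

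ZPS1 stayed above wild type in both mutants through the late window. Between 18 and 58 h it fell from 84.14 to 21.95 TPM in wild type and from 198.6 to 114.3 TPM in nde1Δ nde2Δ ndi1Δ. In cox4Δ it stood at 116.3 and 112.6 TPM at these times. Its lowest, median and highest late levels were 114, 163 and 199 TPM in nde1Δ nde2Δ ndi1Δ and 89.5, 112 and 132 TPM in cox4Δ, against 19.7, 29.0 and 84.1 TPM in wild type. All 18 late mutant libraries were above all 9 of wild type, whose high values were those of 18 and 20 h. The late mean was 163 ± 24.2 TPM in nde1Δ nde2Δ ndi1Δ and 113 ± 13.0 TPM in cox4Δ, against 41.4 ± 24.1 TPM in wild type (SD, 9 times). The log2 difference from wild type was 2.13 ± 0.20 in nde1Δ nde2Δ ndi1Δ (SE, limma adjusted p = 4.4e-13) and 1.61 ± 0.20 in cox4Δ (adjusted p = 8.7e-10), each with 9 of 9 times higher. With median-of-ratios scaling these differences were 2.83 and 2.26. Restricted to 18 to 24 h the differences were 1.53 and 0.98, the value of cox4Δ falling just short of 2-fold, and restricted to 28 to 58 h they were 2.60 and 2.12. The ratio at matched times was highest at 32 h in both, at 8.2 in nde1Δ nde2Δ ndi1Δ and 5.71 in cox4Δ, and stood at 5.2 and 5.13 at 58 h.

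**Figure D3:**
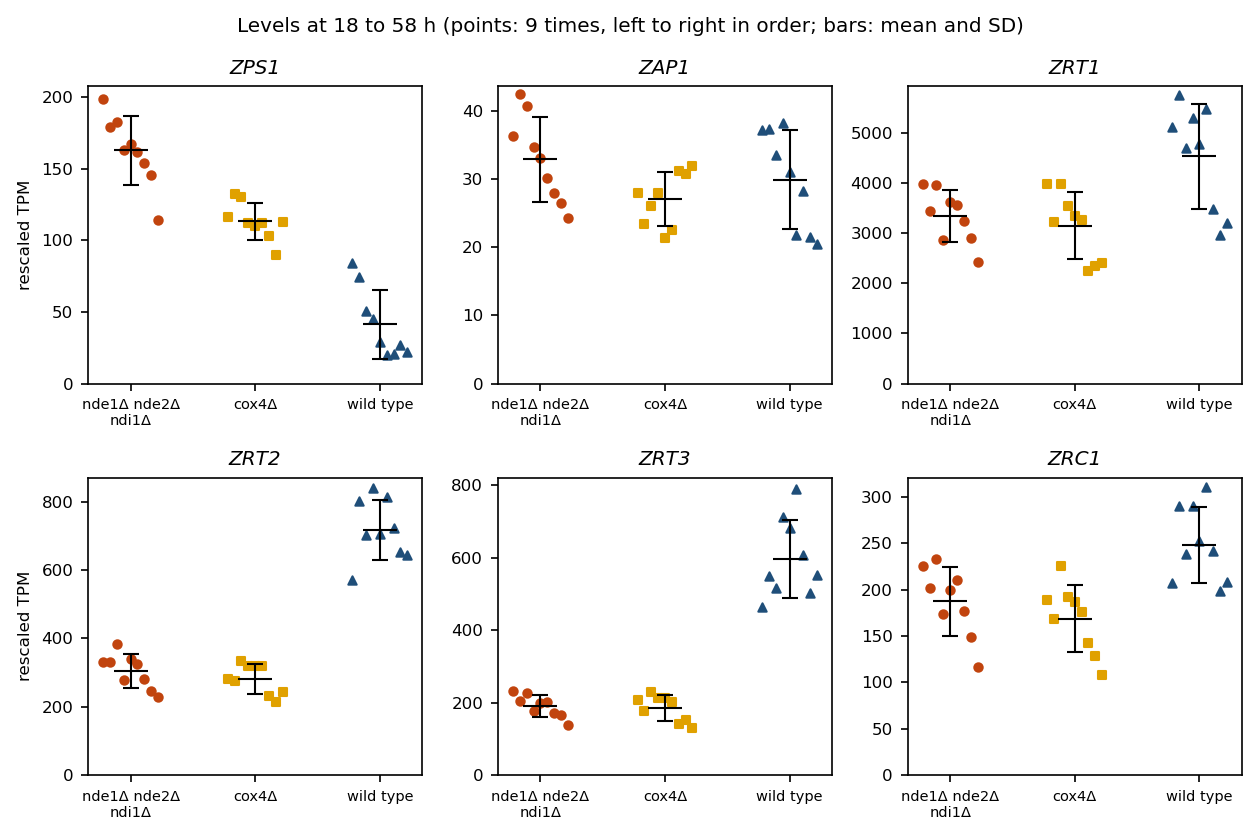
Rescaled TPM of each gene at the 9 times from 18 to 58 h, 1 point per library in order of time from left to right, with the mean and SD as bars. The ranges of mutants and wild type do not overlap for ZPS1, where the mutants are higher, and for ZRT2 and ZRT3, where they are lower; they overlap for ZAP1, ZRT1 and ZRC1.

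Between the mutants, ZPS1 was lower in cox4Δ than in nde1Δ nde2Δ ndi1Δ at 9 of 9 late times, with a log2 difference of -0.51 ± 0.20, which did not pass (limma adjusted p = 0.22). No member was called between the mutants in this window, in which 0.297% of all genes were. Read as 9 levels from highest to lowest, ZPS1 in late nde1Δ nde2Δ ndi1Δ exceeded the next level by more than the larger SD. Late cox4Δ (113 TPM), middle nde1Δ nde2Δ ndi1Δ (110 TPM) and middle cox4Δ (105 TPM) differed from each other by less than their SD. All mean levels of wild type, and the early ones of both mutants, were at or below 41.4 TPM.

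In the early window ZPS1 lay between 19.5 and 83.3 TPM in nde1Δ nde2Δ ndi1Δ (median 24.6) and between 19.3 and 36.8 TPM in cox4Δ (median 24.4), against 13.7 to 22.8 TPM in wild type (median 18.0). The ranges overlapped, and the high values of nde1Δ nde2Δ ndi1Δ were those of 7 and 8 h. The log2 difference was 0.69 ± 0.23 in nde1Δ nde2Δ ndi1Δ (limma adjusted p = 0.24) and 0.39 ± 0.23 in cox4Δ (adjusted p = 0.45). No member was called in either mutant early, where 0.245% of all genes were called in nde1Δ nde2Δ ndi1Δ and 0.769% in cox4Δ.

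The change of ZPS1 between the late and the early window was larger in the mutants than in wild type. Late against early it was higher by 2.38 ± 0.30 in nde1Δ nde2Δ ndi1Δ and 2.16 ± 0.30 in cox4Δ on the log2 scale (limma adjusted p = 1.3e-10 and 2.2e-09), against 0.94 ± 0.30 in wild type (adjusted p = 0.0044), just short of 2-fold. In nde1Δ nde2Δ ndi1Δ 3 of the 6 members were called higher late and none lower, where 12.2% of all genes were called higher and 40.0% lower (52.2% in all). In cox4Δ 3 were called higher and none lower, beside 13.7% and 34.3% of all genes (47.9% in all). In wild type 4 were called higher and none lower, beside 18.4% and 14.7% of all genes (33.1% in all). The difference between these changes was 1.43 ± 0.30 for nde1Δ nde2Δ ndi1Δ against wild type (adjusted p = 6.2e-05) and 1.22 ± 0.30 for cox4Δ against wild type (adjusted p = 0.00059). By this measure 1 member was called higher and 2 lower in each mutant, beside 2.8% and 33.5% of all genes in nde1Δ nde2Δ ndi1Δ (36.3% in all) and 3.51% and 26.1% in cox4Δ (29.6% in all). The wild-type value turned on the span taken: it was 1.70 and called with 18 to 24 h as the late window, and 0.34 with 28 to 58 h. With 18 to 24 h the differences between changes were 0.84 and 0.59 and were not called.

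ZAP1, the gene of the regulator itself, rose over time in all strains. Its lowest level fell at 0 h, at 5.62 TPM in nde1Δ nde2Δ ndi1Δ and 3.81 TPM in cox4Δ, against 4.37 TPM in wild type. Its highest level was 54.1 TPM at 13 h in nde1Δ nde2Δ ndi1Δ and 35.3 TPM at 16 h in cox4Δ, against 39.4 TPM at 14 h in wild type. Every strain was above its 0 h level at all later times. The late levels were 24.3, 33.0 and 42.5 TPM (lowest, median and highest) in nde1Δ nde2Δ ndi1Δ and 21.3, 28.0 and 31.9 TPM in cox4Δ, against 20.4, 31.0 and 38.2 TPM in wild type, and the ranges overlapped. The late difference from wild type was 0.15 ± 0.13 in nde1Δ nde2Δ ndi1Δ (limma adjusted p = 0.29) and -0.12 ± 0.13 in cox4Δ (adjusted p = 0.41), with 0.84 and 0.52 under median-of-ratios scaling, which turned the sign in cox4Δ. Late against early, ZAP1 rose by 1.25 ± 0.25 in nde1Δ nde2Δ ndi1Δ, by 1.59 ± 0.25 in cox4Δ and by 1.40 ± 0.25 in wild type on the log2 scale, all called. With a pseudocount of 10 these values were 0.84, 0.98 and 0.90 and missed 2-fold. Between the mutants early, ZAP1 was lower in cox4Δ than in nde1Δ nde2Δ ndi1Δ at 7 of 7 times, with a log2 difference of -0.61 ± 0.15 (limma adjusted p = 0.024), under 2-fold. Between 9 and 16 h, nde1Δ nde2Δ ndi1Δ was above wild type at 8 of 8 times, with a median ratio of 1.44.

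ZRT1, the high-affinity importer, was induced in every strain. It stood at 17.7 TPM in nde1Δ nde2Δ ndi1Δ and 11.8 TPM in cox4Δ, against 14.1 TPM in wild type, at 0 h. It reached its highest level at 14 h in nde1Δ nde2Δ ndi1Δ (5325 TPM) and at 15 h in cox4Δ (4737 TPM), against 16 h in wild type (5951 TPM). From 7 h on, the first time searched, ZRT1 stood at 2-fold or more over its mean of 0 to 6 h in each strain. It had already risen before, so 7 h does not date its onset. At 6 h it stood at 446 TPM in nde1Δ nde2Δ ndi1Δ and 145 TPM in cox4Δ, against 261 TPM in wild type. Late against early, the log2 change was 4.10 ± 0.65 in nde1Δ nde2Δ ndi1Δ (limma adjusted p = 8.1e-08) and 5.21 ± 0.65 in cox4Δ (adjusted p = 2.1e-10), against 5.01 ± 0.65 in wild type (adjusted p = 9.2e-10).

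Late ZRT1 levels were 2431, 3440 and 3975 TPM (lowest, median and highest) in nde1Δ nde2Δ ndi1Δ and 2253, 3261 and 3994 TPM in cox4Δ, against 2967, 4789 and 5766 TPM in wild type. The ranges overlapped, although each mutant was below wild type at 9 of 9 times. The log2 difference was -0.42 ± 0.17 in nde1Δ nde2Δ ndi1Δ (limma adjusted p = 0.02) and -0.52 ± 0.17 in cox4Δ (adjusted p = 0.0045), under 2-fold, and with median-of-ratios scaling its sign turned, to 0.29 and 0.14. Early, the log2 difference of ZRT1 from wild type was 0.49 ± 0.19 in nde1Δ nde2Δ ndi1Δ (limma adjusted p = 0.52). In cox4Δ it was -0.71 ± 0.19 (adjusted p = 0.02), under 2-fold. The mutants also differed from each other early. ZRT1 was lower in cox4Δ than in nde1Δ nde2Δ ndi1Δ at 7 of 7 times from 0 to 8 h, with 11.8, 90.1 and 725 TPM (lowest, median and highest) in cox4Δ, against 17.7, 274 and 1275 TPM in nde1Δ nde2Δ ndi1Δ. The ranges overlapped, as both strains rose steeply over these times, and the log2 difference at matched times was -1.20 ± 0.19 (adjusted p = 4.7e-05). ZRT1 was the 1 member called lower in this comparison, in which 0.14% of all genes were called lower and 0.192% in either direction. Without the time point as a block the difference was the same and was not called (adjusted p = 0.67).

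ZRT2 and ZRT3 were lower in both mutants late. ZRT2, the low-affinity importer, had 229, 326 and 383 TPM (lowest, median and highest) in nde1Δ nde2Δ ndi1Δ and 213, 282 and 335 TPM in cox4Δ, against 571, 704 and 839 TPM in wild type. All late mutant libraries were below all of wild type. The mean was 304 ± 49.3 TPM in nde1Δ nde2Δ ndi1Δ and 282 ± 44.1 TPM in cox4Δ, against 717 ± 88.2 TPM in wild type. The log2 difference was -1.24 ± 0.12 in nde1Δ nde2Δ ndi1Δ (limma adjusted p = 1.8e-12) and -1.35 ± 0.12 in cox4Δ (adjusted p = 1.6e-13). The direction held under median-of-ratios scaling, at -0.53 and -0.70, but neither value then reached 2-fold.

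ZRT3, the vacuolar zinc exporter, first rose in the mutants with wild type and then turned. It peaked at 12 h in both mutants, at 418 TPM in nde1Δ nde2Δ ndi1Δ and 430 TPM in cox4Δ, against 332 TPM in wild type at that time. Wild type went on to 788 TPM at 32 h. Late levels were 138, 198 and 230 TPM (lowest, median and highest) in nde1Δ nde2Δ ndi1Δ and 129, 201 and 228 TPM in cox4Δ, against 464, 551 and 788 TPM in wild type. The groups did not overlap. The log2 difference was -1.64 ± 0.16 in nde1Δ nde2Δ ndi1Δ (limma adjusted p = 2e-12) and -1.69 ± 0.16 in cox4Δ (adjusted p = 9.2e-13). With median-of-ratios scaling it was -0.94, short of 2-fold, in nde1Δ nde2Δ ndi1Δ and -1.04, still called, in cox4Δ.

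For both genes the late against early change was smaller in the mutants. ZRT2 changed by 0.71 ± 0.22 in nde1Δ nde2Δ ndi1Δ and 0.90 ± 0.22 in cox4Δ, neither called, against 2.12 ± 0.22 in wild type, which was called. ZRT3 changed by 0.47 ± 0.21 in nde1Δ nde2Δ ndi1Δ and 0.86 ± 0.21 in cox4Δ, neither called, against 2.42 ± 0.21 in wild type, which was. The test of the difference gave -1.42 ± 0.18 and -1.23 ± 0.18 for ZRT2 (limma adjusted p = 1.3e-08 in nde1Δ nde2Δ ndi1Δ and 3.9e-07 in cox4Δ) and -1.95 ± 0.24 and -1.56 ± 0.24 for ZRT3 (adjusted p = 6e-09 and 8.5e-07). With median-of-ratios scaling 3 of these 4 differences kept their sign but were not called, at -0.64 and -0.62 for ZRT2 and -0.96 for ZRT3 in cox4Δ, while ZRT3 in nde1Δ nde2Δ ndi1Δ stayed called at -1.17. With 18 to 24 h as the late window, the rise in cox4Δ was called for ZRT2 (1.01) and ZRT3 (1.04). Median-of-ratios scaling also made the rise of both genes within the mutants pass, at 1.46 and 1.47 for ZRT2 and 1.22 and 1.43 for ZRT3 in nde1Δ nde2Δ ndi1Δ and cox4Δ.

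ZRC1, the carrier that stores zinc in the vacuole, was called in none of the 11 comparisons. Its late levels were 117, 199 and 233 TPM (lowest, median and highest) in nde1Δ nde2Δ ndi1Δ and 108, 176 and 225 TPM in cox4Δ, against 199, 241 and 311 TPM in wild type. The ranges overlapped, and the low mutant values were those of 46 and 58 h. The log2 difference was -0.42 ± 0.10 in nde1Δ nde2Δ ndi1Δ (limma adjusted p = 0.00031) and -0.57 ± 0.10 in cox4Δ (adjusted p = 3e-06), under 2-fold, and with median-of-ratios scaling its sign turned, to 0.29 and 0.08.

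**Figure D4:**
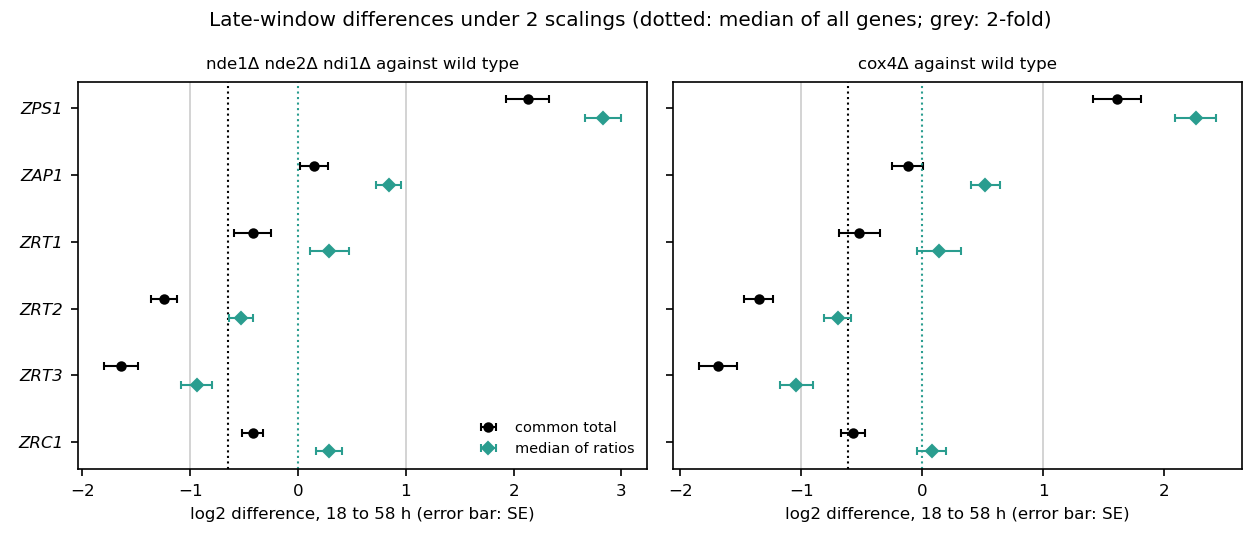
Log2 differences of the late window (mutant minus wild type, with SE) under scaling to a common total (black) and by the median of ratios (green); dotted lines mark the median of all genes and grey lines 2-fold. ZPS1 stays above 2-fold under both, and ZRT2 and ZRT3 stay negative. ZRT1 and ZRC1 change sign in both mutants and ZAP1 does in cox4Δ.

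With the common total, the wider zinc regulon was called late in the mutants at a share near that of all genes. That share of all genes was 32.1% in nde1Δ nde2Δ ndi1Δ and 28.8% in cox4Δ. Of 19 other genes reported as activated by Zap1 or in zinc deficiency, 2 were higher late in nde1Δ nde2Δ ndi1Δ, 3 lower and 14 not called, with a median log2 difference of -0.66 against -0.65 over all genes. In cox4Δ 1 was higher, 5 were lower and 13 not called, with a median of -0.44 against -0.61 over all genes. With median-of-ratios scaling both mutants had 3 higher and 2 lower. Calls over all genes then dropped from 1836 to 913 in nde1Δ nde2Δ ndi1Δ and from 1645 to 847 in cox4Δ. The nearness of the shares thus depended on the scaling. FET4, a low-affinity metal transporter gene, was higher in both: it stood at 55.5 ± 8.8 TPM in nde1Δ nde2Δ ndi1Δ and 52.1 ± 11.3 TPM in cox4Δ, against 24.4 ± 4.9 TPM in wild type. Its log2 differences were 1.16 ± 0.14 and 1.06 ± 0.14 (limma adjusted p = 7.3e-10 and 8.2e-09), with 1.85 and 1.70 under median-of-ratios scaling. PIS1, for phosphatidylinositol synthase, was higher by 1.16 ± 0.09 in nde1Δ nde2Δ ndi1Δ and had 0.82 ± 0.09 in cox4Δ, not called.

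The lower genes of that list were led by IZH1, a membrane protein gene tied to zinc homeostasis. It stood at 97.3 ± 16.9 TPM in nde1Δ nde2Δ ndi1Δ and 109 ± 14.9 TPM in cox4Δ, against 422 ± 144 TPM in wild type. Its log2 differences were -2.05 ± 0.15 and -1.87 ± 0.15, and -1.34 and -1.22 with median-of-ratios scaling, called under both. RAD27, for a flap endonuclease of DNA replication, was lower too, at -1.82 ± 0.27 and -1.64 ± 0.27, also called under both scalings. IZH4, a relative of IZH1, was at -1.24 ± 0.21 in each mutant and was called only under the common total. In cox4Δ the other lower genes were MET30, for a ubiquitin ligase subunit, at -1.18 ± 0.12 and ZRG17, for a zinc transporter of the endoplasmic reticulum, at -1.03 ± 0.12; with median-of-ratios scaling they were at -0.53 and -0.40 and were not called. In nde1Δ nde2Δ ndi1Δ these were at -0.93 and -1.0, not called.

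Of the 2 genes known to be repressed by Zap1, ADH1, the main fermentative alcohol dehydrogenase gene, was lower late in both mutants, at -1.10 ± 0.23 in nde1Δ nde2Δ ndi1Δ and -1.33 ± 0.23 in cox4Δ. With median-of-ratios scaling it was at -0.39 and -0.67 and was not called. ADH3 was called in neither mutant. Of 3 further zinc carrier genes, COT1, for a vacuolar zinc and cobalt carrier, was lower, at -2.03 ± 0.18 in nde1Δ nde2Δ ndi1Δ and -1.83 ± 0.18 in cox4Δ, called under both scalings. YKE4 was lower in cox4Δ, at -1.02 ± 0.15, but was at -0.37 and not called with median-of-ratios scaling. MSC2 was called in neither mutant.

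In wild type, late against early, 4 of the 19 other regulon genes rose, 7 fell and 8 were not called, beside 18.4% of all genes that rose and 14.7% that fell. The risers were IZH1 at 2.99 ± 0.23, MET30 at 1.90 ± 0.19, IZH4 at 1.81 ± 0.29 and ZRG17 at 1.0 ± 0.16 on the log2 scale. The leading fallers were NRG2 at -2.03 ± 0.45, MCD4 at -1.48 ± 0.39, and PIS1 and EKI1 at -1.41 each. In nde1Δ nde2Δ ndi1Δ 1 of the 19 rose and 7 fell, beside 12.2% and 40.0% of all genes. In cox4Δ 5 rose and 5 fell, beside 13.7% and 34.3% of all genes. With median-of-ratios scaling 6 rose and 4 fell in nde1Δ nde2Δ ndi1Δ, and 5 rose and 3 fell in cox4Δ. The median of the 19 moved with that scaling, from -0.83 to -0.23 in nde1Δ nde2Δ ndi1Δ and from -0.61 to -0.04 in cox4Δ. Shares of all genes under that scaling are not given here, so these counts are not read as a result about the list. FET4 rose in both mutants, by 1.31 ± 0.22 in nde1Δ nde2Δ ndi1Δ and 1.81 ± 0.22 in cox4Δ, and RAD27 fell in both, by 2.93 and 2.73. The zinc-responsive element, with at most 1 mismatch, was found in the promoters of 6 of the 19 genes (ADH4, ZRG17, IZH1, DPP1, MCD4 and MNT2), in 1 of the 3 carrier genes (MSC2) and in neither gene repressed by Zap1.

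**Figure D5:**
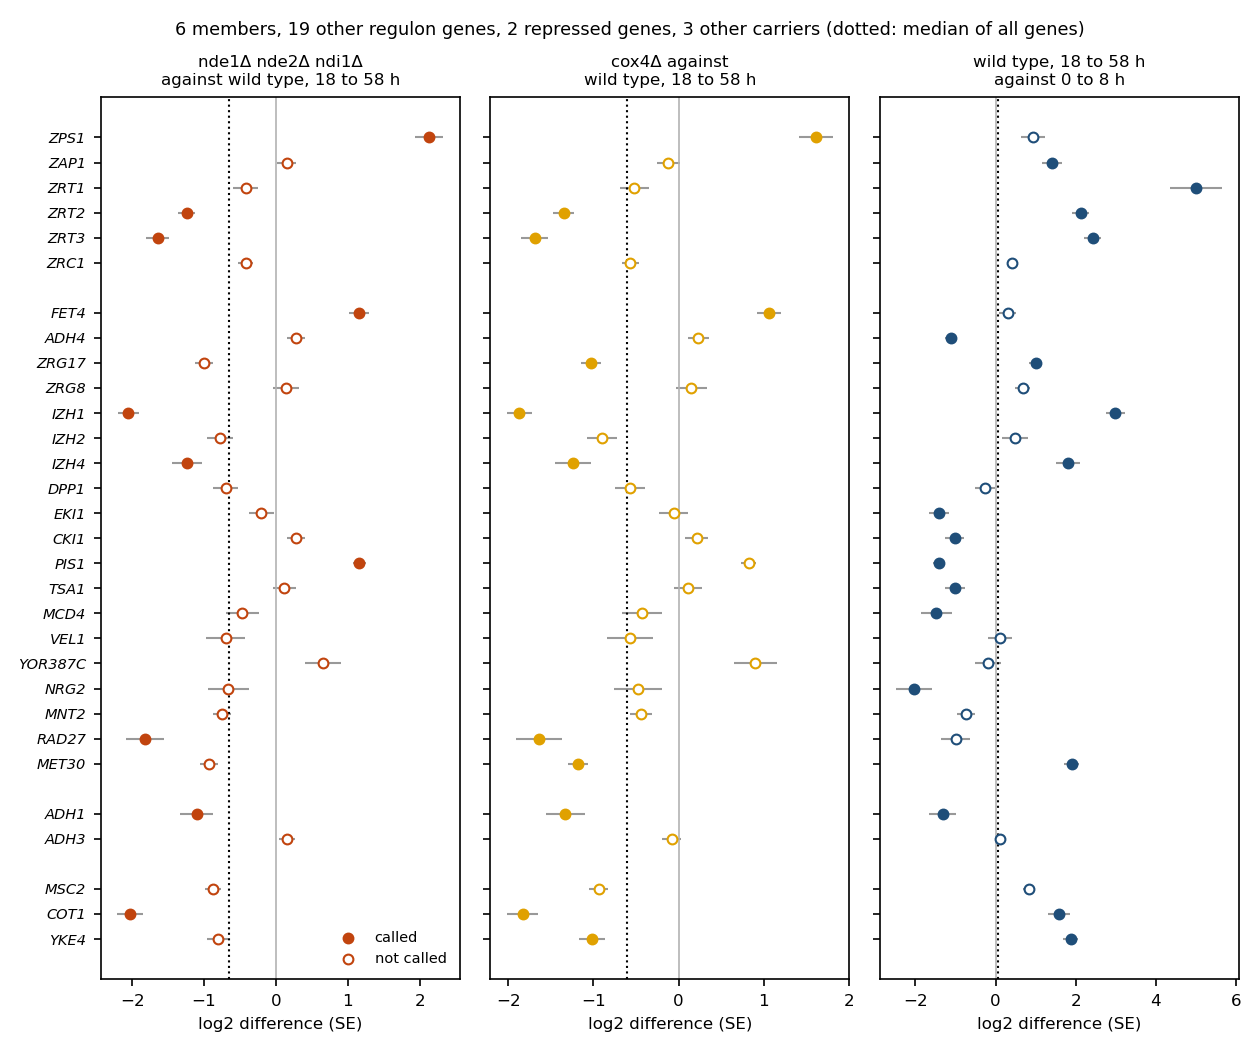
Log2 differences with SE of the 6 members, 19 other regulon genes, 2 genes repressed by Zap1 and 3 further carrier genes, for each mutant against wild type late and for wild type late against early; filled points are called and dotted lines mark the median of all genes. ZPS1 is the highest of the 30 genes in both mutants, at 2.13 and 1.61, and IZH1 the lowest, at -2.05 and -1.87.

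Likeness to the course of ZPS1 was ranked among genes with a mean of at least 10 TPM over the 72 libraries. Of the zinc genes listed here, low ones such as ZRG8, VEL1 and YOR387C were therefore not ranked. The first 10 genes held none of the listed zinc genes that were ranked. Across the 72 libraries, which share time points and strains, Pearson's r of log2 levels was highest with YJL133C-A (0.899) and CAB2 (0.869), for an enzyme of coenzyme A synthesis. BDH1, for butanediol dehydrogenase, and HOS4, for a subunit of a histone deacetylase complex, followed at 0.842 each, then AIM17 at 0.837. The 10 also held RSB1 and SUC2, for invertase, at 0.828 each, SOL1 at 0.826, BAP2, for an amino acid permease, at 0.815 and FLP1, a gene of the resident plasmid, at 0.811. Among 4431 genes ranked, ZAP1 came at place 139 (0.708) and ZRT1 at 195 (0.677), with ZRT2 at 956, ZRT3 at 1001 and ZRC1 at 1515. For ZRT1 the first 5 were BAP2 (0.947), then FIT2, GSC2 and YMR181C (0.945 each) and FIT3 (0.943), with ZAP1 at place 10 (0.931). FIT2 and FIT3 encode cell wall proteins that help to hold iron.

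Within a strain the members moved together to different degrees, described here over 24 times that share a time course. ZPS1 and ZRT1 had r = 0.93 in nde1Δ nde2Δ ndi1Δ and in cox4Δ, against 0.59 in wild type. ZAP1 and ZRT1 were close in every strain, at 0.95, 0.95 and 0.91. ZRT2 and ZRT3 had r = 0.60 in nde1Δ nde2Δ ndi1Δ and 0.75 in cox4Δ, against 0.96 in wild type. ZRC1 and ZPS1 had r = -0.21 and -0.26 in the mutants and 0.58 in wild type.

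Some neighbours of the members also differed late. HPF1, for a cell wall mannoprotein, is the next gene upstream of ZPS1, transcribed away from it across 3051 bases, and it was higher by 3.03 ± 0.23 in nde1Δ nde2Δ ndi1Δ and 2.98 ± 0.23 in cox4Δ (limma adjusted p = 1.4e-15 and 2.3e-15). LST4, transcribed away from ZRT3 across 806 bases, was lower, at -1.21 ± 0.14 and -1.13 ± 0.14. On the other side ZRT3 faces TPO5, a polyamine transporter gene, across 75 bases, and TPO5 had -0.35 and -0.41, under 2-fold. Whether reads were shared between neighbours was not tested, and the strand setting of the counting is not given in the sources used here.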

How the data were processed

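The deposited table holds TPM per gene and library, made by the authors; tools listed in the submitters' processing notes are Salmon 0.9.1 and bcl2fastq 2.20.0.422, with sacCer3 as build. Libraries were stranded total RNA libraries after removal of ribosomal RNA, per the labels' protocols. How strand was treated, and which annotation served, is not given in the sources used here. Of 5803 entries, 5779 carried the name of a RefSeq R64 gene and 13 one of its older names, while 11 had no match. No deposited TPM lay below 0.1, and 38 to 134 genes per library stood there. Sums over 5780 nuclear entries were set to a common total, since 23 mitochondrial and plasmid entries held 0.147% to 0.881%.

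Tests were run in R 4.3.3 by limma 3.58.1 (trend and robust options) on log2(rescaled TPM + 1) for the 5721 genes with a mean of at least 1; folds on this scale understate changes of low genes. Strain comparisons and differences between changes had the time point as a block, and changes within a strain had 9 means of strain and window. Tests were 2-sided, with Benjamini-Hochberg adjustment over all genes tested. The pairing by time comes from matched sampling hours, not from shared cultures: the correlation, over genes, of the deviations of same-time libraries from their window means ranged from -0.4 to 0.83. The script was tested on simulated data.

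Alternatives were the scaling, the pseudocount, the filter, the moderation, the block, the span of the late window and leaving out each time point. Named beside the members were up to 4 called list genes per direction and comparison, the 10 genes most like ZPS1 and the 5 most like ZRT1; ZRG17, the fifth lower gene in cox4Δ, genes not called and the neighbours were named after their values were seen. The members and lists were chosen with earlier results of these data known.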

Additional observations from a re-analysis of the deposited data

Results flagged for a closer look

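ZRT1 differed between the mutants from 0 to 8 h, with a log2 difference of -1.2 (cox4Δ minus nde1Δ nde2Δ ndi1Δ), tested within matched times. The change of ZPS1 between the late and the early window differed from that of wild type by 1.43 in nde1Δ nde2Δ ndi1Δ and by 1.22 in cox4Δ. The change of ZRT2 differed from that of wild type by -1.42 in nde1Δ nde2Δ ndi1Δ and by -1.23 in cox4Δ, and that of ZRT3 by -1.95 and -1.56. Each of these 7 differences passed the test of the difference itself by limma with a common total. Letter codes in the sample descriptions follow strain and time and cannot be told apart from them.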

How the results depend on the processing

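Over alternatives other than leaving out a time point, 542 values of the members kept direction and call, 13 missed the call, 8 gained it and 13 turned sign; none that turned had been called, and the cause was not tested. Leaving out a time point gave 1579 unchanged and 5 gained calls. ZPS1 in wild type, late against early, passed without 32, 38 or 58 h (1.05, 1.04 and 1.03). ZRT3 in cox4Δ, late against early, passed without 8 h (1.0), and the ZRT1 change in nde1Δ nde2Δ ndi1Δ against wild type without 4 h (-1.0).

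With median-of-ratios scaling, signs turned late for ZRT1 (0.29) and ZRC1 (0.29) in nde1Δ nde2Δ ndi1Δ, and for ZAP1 (0.52), ZRT1 (0.14) and ZRC1 (0.08) in cox4Δ. They also turned for ZRC1 early between the mutants (0.01), for ZRC1 late against early in nde1Δ nde2Δ ndi1Δ (0.56) and cox4Δ (0.35), and for the changes of ZAP1 (0.60) and ZRC1 (0.17) in nde1Δ nde2Δ ndi1Δ against wild type. With 28 to 58 h ZAP1 in cox4Δ turned (0.16), and with 18 to 24 h ZRT1 between the mutants (0.05) and the change of ZAP1 in cox4Δ against wild type (-0.15).

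Counts over all genes, nde1Δ nde2Δ ndi1Δ first and cox4Δ second, were 913 and 847 late with median-of-ratios scaling and 697 and 650 with a pseudocount of 10, in place of 1836 and 1645. For the differences between changes they were 1007 and 993, and 808 and 688, in place of 2077 and 1693. With a pseudocount of 10 the early counts were 8 and 16 in place of 14 and 44, the counts late against early 1802 and 1627 in place of 2986 and 2743, with 1232 in place of 1895 in wild type. Between the mutants the late count was 11, and 10 with 28 to 58 h, in place of 17. Without the time point block, early counts were 7 and 19, and 6 in place of 11 between the mutants. The block changed no other call of a member than that of ZRT1 given in the report. Leaving out a time point gave 28 to 48 early calls in cox4Δ, with 28 without 7 h and 29 without 8 h.

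There was 1 library per strain and time, depth is unknown, and the letter codes of the samples follow strain and time. Values of the late window depend on the scaling, since most genes were lower in the mutants against a common total.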
